A study of Homo sapiens with 4 samples.

Results

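SMAR1 occupancy was examined in 9 of the longest genes of the human genome, listed as lying at common fragile sites: *FHIT*, *WWOX*, *MACROD2*, *CSMD1*, *LRP1B*, *CNTNAP2*, *DLG2*, *RBFOX1* and *PTPRN2*. The genes were listed by name, and a peak was assigned to a gene when its centre lay between the start and the end of the gene on hg19. They held 85 peaks in all, 40 of the 5709 peaks called in HCT116 p53+/+ cells and 45 of the 8217 called in HCT116 p53-/- cells. HCT116 cells come from a human colorectal carcinoma, and the lines compared either carry p53 (p53+/+, wild type) or lack it (p53-/-, null). Both were untreated and grown in the same medium, and whether the p53-/- line is a single clone is not given in the sources used here. Chromatin was precipitated with an antibody against SMAR1, also called BANP, and 1 library per cell line was sequenced and its peaks called with MACS. The matching rabbit IgG libraries were not analysed here. Because there was 1 library per cell line, no difference between the lines has a replicate check, and the 95% intervals below cover counting error only.

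Common fragile sites are regions that form gaps and breaks on metaphase chromosomes when DNA replication is slowed, and many of them coincide with very long genes that replicate late and are often deleted in tumours. SMAR1 is a nuclear matrix protein that was isolated as a factor binding matrix attachment regions, the sequences that tether chromatin loops. It interacts with p53 and recruits repressor complexes to promoters and gene bodies. The repeat examined by the study is a run of T(C/G), that is of TC and TG dinucleotides in any order, read on either strand and called here when at least 12 bp were uninterrupted.

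The peak lists hold a position and a score for each peak and no read counts, so the depth is unknown from them. The alignment statistics of the study list more reads for the HCT116 p53-/- library, and the part of depth in any difference between the lines was not tested. The study also filtered peaks on fold enrichment at a limit not given in the sources used here, so peaks below it would be absent from the lists. The score is −10 times the log10 of the MACS p-value. As it grows with depth, it was compared only within a list. On chromosomes 1 to 22, X and Y there were 5617 HCT116 p53+/+ peaks with a median score of 67.86 and 8198 HCT116 p53-/- peaks with a median score of 73.93. The list averages were 1.96 and 2.87 peaks per Mb of sequence without gaps, respectively. Except for the counts of all peaks given above and the score percentiles, which are ranks among all called peaks, the comparisons below are with these chromosomes.

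No peak in the 9 genes overlapped a peak of the other cell line, whereas 20.5% of all HCT116 p53+/+ peaks and 13.4% of all HCT116 p53-/- peaks did. Whether this absence is particular to the 9 genes was not tested, as set out further on. The members held about as many peaks per Mb as the list average. *RBFOX1*, the longest of the 9 genes, held the largest number of peaks in both lines. Per Mb, *PTPRN2* was the densest in HCT116 p53+/+ and *RBFOX1* in HCT116 p53-/-. Of the 85 peaks, 80 lay in introns of the canonical transcript, which make up 94.9% of the sequence of the genes, and 8 lay within 5 kb of an annotated TSS. A T(C/G) run was held by 65 of the 85, while 60.1% of all HCT116 p53+/+ peaks and 76.0% of all HCT116 p53-/- peaks held one. The peaks outside canonical introns were 4 of *RBFOX1* and an HCT116 p53-/- peak at the promoter of *WWOX*.

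To show what the peaks consist of, highest-scoring peaks of the genes in each line are given below as the plus strand of hg19 (GRCh37), 5′ to 3′, with the longest T(C/G) run in capitals. *CSMD1* is described by its values only, and the *WWOX* peak of HCT116 p53-/- further on. In 7 of these peaks the run was assigned to TC, since its longest pure TC tract was at least as long as its TG tract. On the other strand the same tract reads GA.
FHIT, HCT116 p53+/+, chr3:59776214-59776248: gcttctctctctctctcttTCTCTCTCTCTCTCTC
LRP1B, HCT116 p53+/+, chr2:141832124-141832157: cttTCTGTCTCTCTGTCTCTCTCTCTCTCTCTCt
LRP1B, HCT116 p53-/-, chr2:142085428-142085489: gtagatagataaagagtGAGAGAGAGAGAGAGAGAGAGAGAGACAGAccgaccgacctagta
CNTNAP2, HCT116 p53-/-, chr7:145893664-145893708: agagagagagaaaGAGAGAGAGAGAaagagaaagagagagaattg
DLG2, HCT116 p53-/-, chr11:83319735-83319811: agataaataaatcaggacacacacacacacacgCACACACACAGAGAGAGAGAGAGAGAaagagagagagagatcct
RBFOX1, HCT116 p53-/-, chr16:6941465-6941505: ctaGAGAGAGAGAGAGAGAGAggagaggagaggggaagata
PTPRN2, HCT116 p53+/+, chr7:157808144-157808190: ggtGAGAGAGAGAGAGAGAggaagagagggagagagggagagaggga
In 3 further peaks, of *MACROD2* and *PTPRN2*, the longest pure tract was TG, which reads CA on the other strand. They consist almost wholly of CA.
MACROD2, HCT116 p53+/+, chr20:14195995-14196031: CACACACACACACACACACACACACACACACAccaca
MACROD2, HCT116 p53-/-, chr20:15623245-15623282: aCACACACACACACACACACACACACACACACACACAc
PTPRN2, HCT116 p53-/-, chr7:157376578-157376624: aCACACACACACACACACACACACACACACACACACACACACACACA
The *WWOX* peak of HCT116 p53+/+ was classed as mixed, as neither pure tract reached 12 bp.
WWOX, HCT116 p53+/+, chr16:79101248-79101286: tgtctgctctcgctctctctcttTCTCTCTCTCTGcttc
The highest-scoring HCT116 p53+/+ peaks of *CNTNAP2* and *RBFOX1* held no run of 12 bp. The *CNTNAP2* peak is a trinucleotide tract, while the *RBFOX1* peak is rich in AG but interrupted.
CNTNAP2, HCT116 p53+/+, chr7:147575360-147575393: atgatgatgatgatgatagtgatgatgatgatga
RBFOX1, HCT116 p53+/+, chr16:6722369-6722405: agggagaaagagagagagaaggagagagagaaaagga

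**Figure D1:**
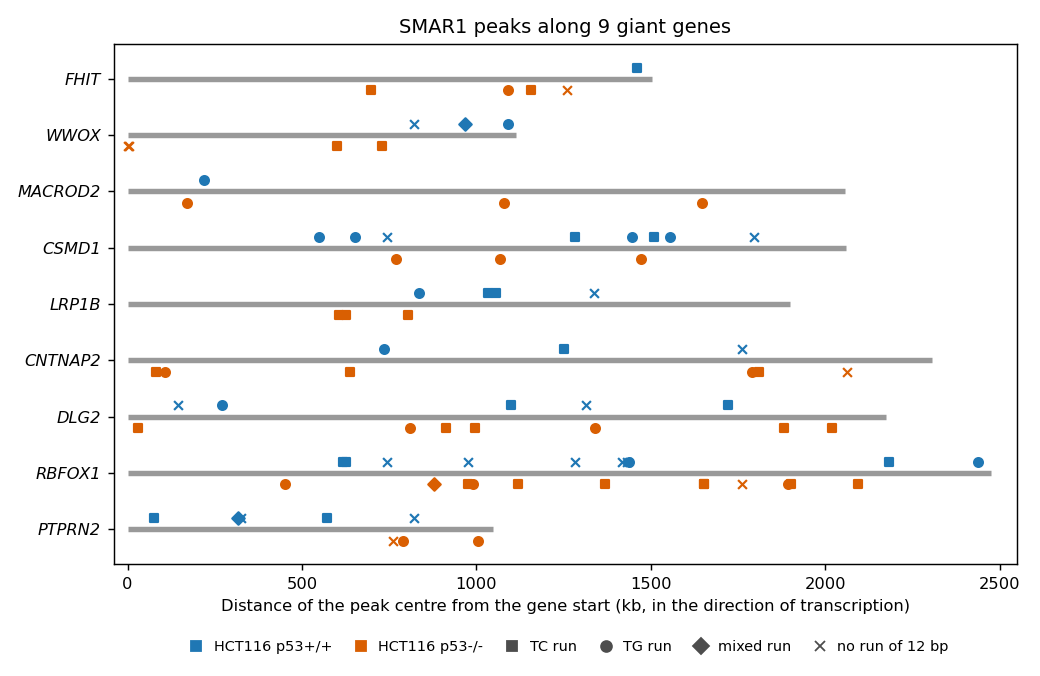
Position of every peak along the 9 genes. The x axis is the distance of the peak centre from the gene start in kb, each grey bar is a gene, blue symbols above it are the HCT116 p53+/+ peaks (40) and orange symbols below it the HCT116 p53-/- peaks (45), and the symbol gives the type of T(C/G) run. The peaks are scattered over the genes, and no blue symbol marks the same interval as an orange one.

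The members span 16.6 Mb. At the list average this length would hold 32.7 HCT116 p53+/+ peaks and 47.7 HCT116 p53-/- peaks, against 40 and 45 found. The density was thus 1.22 times the list average in HCT116 p53+/+ (95% Poisson interval 0.874 to 1.67) and 0.943 times in HCT116 p53-/- (0.688 to 1.26), and neither differed from the average beyond counting error. With only the peaks at or above the median score of their list, the ratio in HCT116 p53+/+ was 1.56 (1.02 to 2.29), an interval that no longer includes 1. Without *RBFOX1* the ratios were 1.08 (0.727 to 1.54) and 0.813 (0.559 to 1.14).

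Pooled, the 324 protein-coding genes of at least 500 kb, members included, had 0.913 times the list average in HCT116 p53+/+ (0.834 to 0.998) and 0.961 times in HCT116 p53-/- (0.893 to 1.03), both within the intervals of the members. The median ratio over single genes was 0.775 and 0.788 for the 324 genes and 1.17 and 0.927 for the 9 members, which are longer. In HCT116 p53+/+, 6 of the 9 members were denser than the list average, against 35.2% of the 324 genes. In HCT116 p53-/- it was 3 of the 9, against 40.7%.

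**Figure D2:**
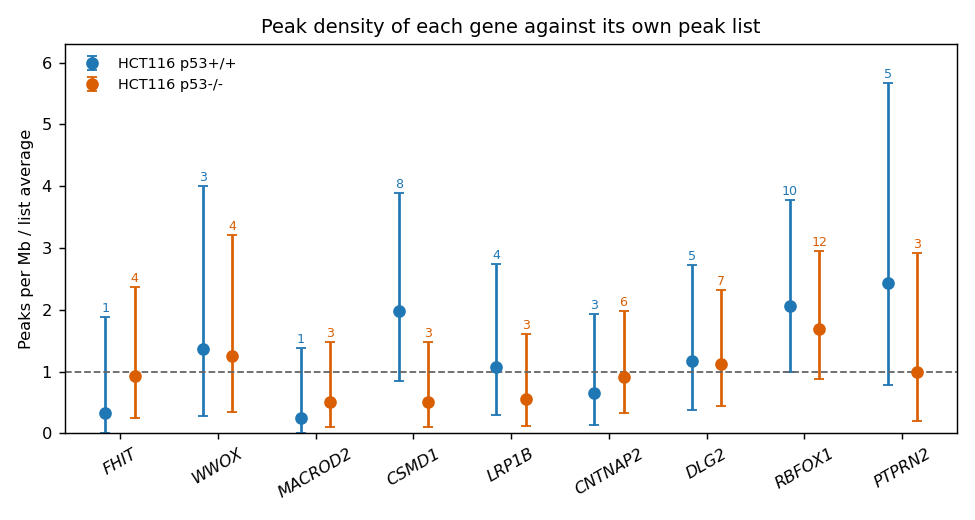
Peak density of each gene divided by the average of its own list. Points are ratios, error bars are 95% Poisson intervals and the numbers above them are peak counts, in blue for HCT116 p53+/+ and in orange for HCT116 p53-/-. The dashed line is the list average, and it lies within every interval.

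*FHIT* and *WWOX* are tumour suppressor genes, encoding a dinucleoside polyphosphate hydrolase and a WW domain oxidoreductase. *FHIT* (chr3:59733003-61237133, minus strand) held 1 peak in HCT116 p53+/+, or 0.338 times the list average (0.00857 to 1.89), and 4 in HCT116 p53-/-, or 0.927 times (0.253 to 2.37). Its HCT116 p53+/+ peak lay in intron 8, at 97.1% of the gene length, and had a score of 98.09. The HCT116 p53-/- peaks lay in introns 4, 5 and 7 with scores from 52.44 to 98.83. The first 698 kb of the gene, 46.4% of its length, held no peak in either line.

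*WWOX* (chr16:78133297-79246564, plus strand) held 3 peaks in HCT116 p53+/+ (ratio 1.37, 0.283 to 4.01) and 4 in HCT116 p53-/- (1.25, 0.341 to 3.21). Against the average of chromosome 16 the HCT116 p53+/+ ratio was 0.912. All 3 HCT116 p53+/+ peaks were in intron 8, the 779 kb intron that makes up most of the gene, with scores of 66.48, 98.09 and 80.98. In HCT116 p53-/-, 2 peaks were in the same intron (scores 58.1 and 97.76). The other 2 lay within 5 kb of the gene start and were the only ones of the 85 to do so. Between them and the next peak was a stretch of 596 kb without a peak in either line.

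The *WWOX* promoter peak (chr16:78133282-78133614, HCT116 p53-/-) was the longest of the 85, at 333 bp. Its score was 117.97. Its centre lay 0.151 kb downstream of the gene start, before the canonical transcript but in an exon of another annotated transcript. Its GC content was 68.8% and it held no T(C/G) run. It held 1 copy of TCGCGA, the palindromic core of the element that BANP is known to bind, and it was the only peak of the 85 with this hexamer. The hexamer reads the same on both strands and was chosen after the values were seen. Only the hexamer was searched for, not the longer element, and whether SMAR1 binds through it was not tested. The 30 bases around it are shown with the hexamer in capitals.
WWOX, HCT116 p53-/-, chr16:78133479-78133508: tgacgccggccgTCGCGAtattgcggagac
TCGCGA was found in 27.1% of the HCT116 p53-/- peaks within 1 kb of a TSS and in 26.8% of such HCT116 p53+/+ peaks, and in 4.53% and 3.90% of all peaks. It was in 3.12% of 35116 RefSeq promoters of 300 bases (GRCh38.p14). The peaks vary in length and lie near a TSS of any annotated transcript. They were not matched to these promoters in length or GC content, so the shares are not directly comparable. The nearest HCT116 p53+/+ peak was 335 kb from the *WWOX* promoter peak. The second peak near the start (chr16:78138226-78138264) lay in intron 1, 4.95 kb from the gene start, and had a score of 113.94.

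*MACROD2*, which encodes an enzyme that removes mono-ADP-ribose from proteins, had the lowest density of the 9 genes in HCT116 p53+/+. The gene (chr20:13976015-16033842, plus strand) held 1 peak in HCT116 p53+/+ (ratio 0.247, 0.00626 to 1.38) and 3 in HCT116 p53-/- (0.508, 0.105 to 1.49). Each of the 4 peaks was a TG tract in an intron. The HCT116 p53+/+ peak, with a score of 110.92, was in intron 3 and 49.0 kb from an HCT116 p53-/- peak of the same intron with a score of 81.61. The other HCT116 p53-/- peaks were in introns 5 and 8, with scores of 81.61 and 134.93. A stretch of 858 kb, 41.7% of the gene, held no peak in either line.

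*CSMD1*, *LRP1B*, *CNTNAP2* and *PTPRN2* encode proteins of the membrane and *DLG2* a scaffold that binds under it. *CSMD1* (chr8:2792875-4852494, minus strand) encodes a membrane protein with CUB and sushi domains, which inhibits complement. It was the gene with the largest excess of HCT116 p53+/+ over HCT116 p53-/- peaks, with 8 (ratio 1.98, 0.853 to 3.90) against 3 (0.508, 0.105 to 1.48). Among peaks at or above the median score, the HCT116 p53+/+ ratio was 2.91 (1.07 to 6.34). HCT116 p53-/- peaks made up 27.3% of its 11 peaks (exact binomial interval 6.02 to 61.0%), against 59.3% over both lists, so the difference was within counting error. One of its HCT116 p53+/+ peaks, at chr8:3343056-3343100 in intron 11, had the highest HCT116 p53+/+ score in the 9 genes (171.7). It held a T(C/G) run of 30 bp. The other 7 scored from 54.28 to 110.92. The HCT116 p53-/- peaks scored 69.53, 81.61 and 98.83, the last at chr8:3380530-3380563 in intron 10. All 3 were TG tracts.

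*LRP1B* (chr2:140988992-142888585, minus strand) encodes a large receptor of the low-density lipoprotein receptor family. It held 4 peaks in HCT116 p53+/+ (ratio 1.07, 0.292 to 2.74) and 3 in HCT116 p53-/- (0.551, 0.114 to 1.61). The HCT116 p53+/+ scores were 50.67, 150.52, 95 and 50.09, which placed them between percentiles 0.928 and 96.4 of the list. The HCT116 p53-/- peaks, with scores of 115.5, 62.65 and 81.61, all held a TC tract. With a GC content of 34.8%, *LRP1B* was the most AT-rich of the 9 genes.

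*CNTNAP2* (chr7:145813094-148118090, plus strand) encodes a neurexin family protein that clusters potassium channels on axons. It held 3 peaks in HCT116 p53+/+ (ratio 0.662, 0.137 to 1.94), with scores of 61.96, 54.99 and 130.47, and 6 in HCT116 p53-/- (0.908, 0.333 to 1.98), with scores from 53.44 to 98.83. Intron 1, which spans 657 kb, held 3 of the HCT116 p53-/- peaks and none of the HCT116 p53+/+ peaks. The highest score in HCT116 p53-/- was shared by 2 peaks of this intron, and the one nearer the gene start is shown above.

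*DLG2* (chr11:83166055-85339379, minus strand) encodes a scaffold of the postsynaptic density. It held 5 peaks in HCT116 p53+/+ (ratio 1.17, 0.380 to 2.73) and 7 in HCT116 p53-/- (1.12, 0.452 to 2.31). The HCT116 p53+/+ scores ran from 56.34 to 93.39, and 4 of the 5 were above the list median. The HCT116 p53-/- scores ran from 58.68 to 75.25, and 1 of the 7 was above the list median, although all 7 held a run. *DLG2* was thus the gene with the lowest top score in HCT116 p53-/-.

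*PTPRN2* (chr7:157331750-158380515, minus strand) encodes a receptor-type tyrosine phosphatase family protein of dense-core secretory vesicles. It is the shortest of the 9 genes and the richest in GC (51.4%), and it had the highest density in HCT116 p53+/+. It held 5 peaks there (ratio 2.43, 0.788 to 5.66), with scores from 50.66 to 82.73, and 3 in HCT116 p53-/- (0.997, 0.206 to 2.92), with scores from 59.49 to 78.51. Among HCT116 p53+/+ peaks at or above the median score the ratio was 3.82 (1.04 to 9.77), from 4 peaks. In HCT116 p53+/+ it ranked 22 of the 324 long genes and in HCT116 p53-/- 134.

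*RBFOX1*, which encodes an RNA-binding regulator of splicing, held the most peaks in both lines. The gene (chr16:5289803-7763342, plus strand) had 10 peaks in HCT116 p53+/+ (ratio 2.06, 0.987 to 3.78) and 12 in HCT116 p53-/- (1.69, 0.874 to 2.96). The choice of average mattered here, as the HCT116 p53+/+ ratio was 2.23 (1.07 to 4.11) against protein-coding genes and 1.37 (0.656 to 2.52) against chromosome 16. Over the span of the canonical transcript the HCT116 p53-/- ratio was 2.26 (1.13 to 4.05). It ranked 32 and 52 of the 324 long genes, respectively. Scores ran from 53.25 to 150.52 in HCT116 p53+/+ and from 58.68 to 158.65 in HCT116 p53-/-. A run was held by 5 of the 10 HCT116 p53+/+ peaks and by 11 of the 12 HCT116 p53-/- peaks. The canonical transcript begins within the gene, and 3 HCT116 p53+/+ peaks and 1 HCT116 p53-/- peak lay upstream of it. Intron 3 held 3 peaks of each line.

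The closest approach of the lists in the 9 genes was in intron 1 of *RBFOX1*, where the centres of an HCT116 p53+/+ peak (score 73.74) and an HCT116 p53-/- peak (score 61.33) were 236 bp apart and 106 bases lay between the peaks. Both sequences are shown, with a run of 14 bp of the HCT116 p53-/- peak in capitals. Both are purine tracts with similar units, and the HCT116 p53+/+ peak holds no run longer than 6 bp.
RBFOX1, HCT116 p53+/+, chr16:6264920-6264994: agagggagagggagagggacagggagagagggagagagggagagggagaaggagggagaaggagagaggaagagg
RBFOX1, HCT116 p53-/-, chr16:6264630-6264813: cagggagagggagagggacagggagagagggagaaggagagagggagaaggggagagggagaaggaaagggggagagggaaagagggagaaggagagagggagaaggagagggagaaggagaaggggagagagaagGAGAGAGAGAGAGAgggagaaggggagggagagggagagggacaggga
The pair was singled out after its values were seen. In the other genes the closest pairs of the lists were 25.6 kb apart in *DLG2*, 25.7 kb in *CSMD1* and 26.6 kb in *CNTNAP2*.

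In order of density, HCT116 p53+/+ gave *PTPRN2* (4.77 peaks per Mb), *RBFOX1* (4.04), *CSMD1* (3.88), *WWOX* (2.69), *DLG2* (2.30), *LRP1B* (2.11), *CNTNAP2* (1.30), *FHIT* (0.665) and *MACROD2* (0.486). In HCT116 p53-/- the order was *RBFOX1* (4.85), *WWOX* (3.59), *DLG2* (3.22), *PTPRN2* (2.86), *FHIT* (2.66), *CNTNAP2* (2.60), *LRP1B* (1.58), with *MACROD2* and *CSMD1* both at 1.46. The intervals of neighbours in either order overlapped, and in each line the interval of the densest gene overlapped that of the sparsest. No pair of genes was compared directly, so whether any of them differ was not tested. HCT116 p53-/- peaks were 52.9% of the 85 (41.8 to 63.9%), against 59.3% over both lists. Per gene this share ran from 27.3% in *CSMD1* to 80.0% in *FHIT*, and each interval included the value of the lists.

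None of the 40 HCT116 p53+/+ peaks shared a base with an HCT116 p53-/- peak, which allows a share of up to 7.5% (3 of 40), and the exact binomial interval reached 8.81%. For the 45 HCT116 p53-/- peaks the limits were 6.67% and 7.87%. Over the lists, 20.5% of HCT116 p53+/+ peaks and 13.4% of HCT116 p53-/- peaks overlapped the other list. Among peaks in introns of protein-coding genes and more than 5 kb from a TSS, the shares were 15.9% and 10.3%. In the other genes of at least 500 kb, 72 of 444 (16.2%) and 72 of 698 (10.3%) peaks overlapped. The count in one line fixes that in the other, as an overlap involves a peak of each. The upper limits for the 9 genes lay below each of the shares given here for other peaks. This does not decide whether the shares differ, as the limits cover counting error only and treat the peaks as independent. The limits of both lines rest on the same absence, and the 9 genes were chosen with earlier results of these data known. Whether the shares differ was not tested.

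**Figure D3:**
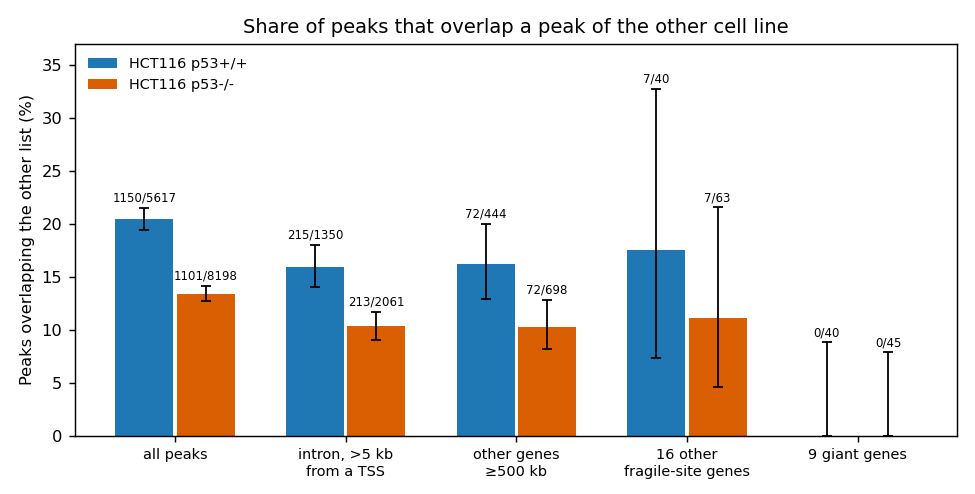
Share of peaks that overlap a peak of the other cell line by at least 1 bp, in percent, for all peaks, distal intronic peaks, other long genes, 16 other genes at fragile sites and the 9 giant genes. Bars are shares, error bars 95% exact binomial intervals and labels the counts, in blue for HCT116 p53+/+ and in orange for HCT116 p53-/-. The 9 genes have 0 of 40 and 0 of 45.

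To see whether other fragile-site genes behaved alike, 16 further large genes at such sites were counted. They held 40 peaks in HCT116 p53+/+ (0.995 times the list average, 0.711 to 1.35) and 63 in HCT116 p53-/- (1.07 times, 0.825 to 1.37). Of these, 7 in each line overlapped the other list, or 17.5% (7.34 to 32.8%) and 11.1% (4.59 to 21.6%). The intervals of these genes and of the 9 giant genes overlapped, which does not decide whether their shares differ. No direct comparison was made, so whether the absence of shared peaks is particular to the 9 was not tested. The densest were *IL1RAPL1* in HCT116 p53+/+ (ratio 1.86) and *MAGI2* in HCT116 p53-/- (2.18). *DAB1* and *DPYD* were among those with 0 peaks in HCT116 p53+/+, and *NBEA* held 0 in HCT116 p53-/-.

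At least 1 T(C/G) run of 12 bp was present in 26 of the 40 HCT116 p53+/+ peaks (65.0%, 48.3 to 79.4%), against 60.1% of the list. In HCT116 p53-/- it was 39 of 45 (86.7%, 73.2 to 94.9%), against 76.0%. Both shares are near those of the distal intronic peaks, 68.0% and 84.8%. By type, the HCT116 p53+/+ peaks held a TC tract in 13, a TG tract in 11, a mixed run in 2 and none in 14. The HCT116 p53-/- peaks held a TC tract in 22, a TG tract in 16, a mixed run in 1 and none in 6. The median length of the longest T(C/G) stretch in a peak was 35 bp among the HCT116 p53+/+ peaks with a run and 26 bp among those of HCT116 p53-/-. In both lines it was 30 bp over the list and 32 bp among distal intronic peaks. The difference between the lines in the 9 genes was not tested.

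**Figure D4:**
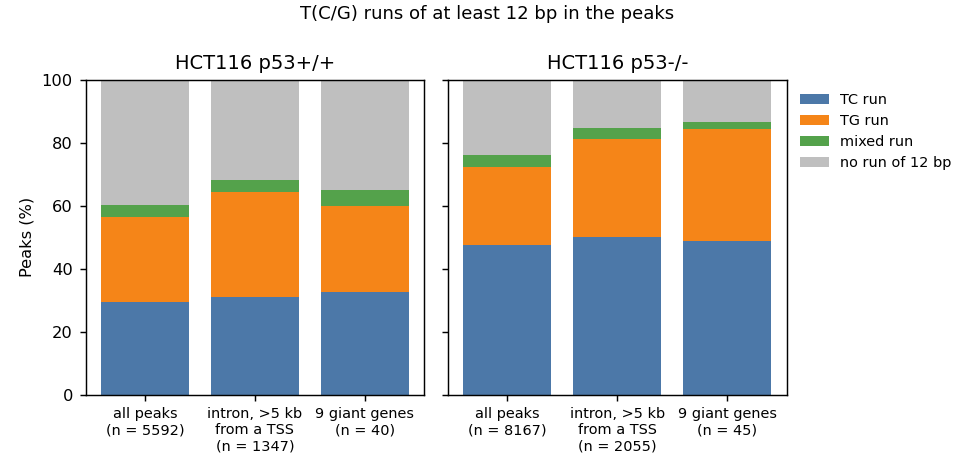
Type of T(C/G) run in the peaks, in percent of the peaks with a complete sequence, for all peaks, distal intronic peaks and the 9 giant genes in each line. In the 9 genes 65.0% of HCT116 p53+/+ peaks and 86.7% of HCT116 p53-/- peaks held a run, and TC tracts made up 32.5% and 48.9%.

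The runs are common in these genes, and few carried a peak. The 9 genes held 2399 runs, or 144 per Mb against 130 per Mb over the genome. *PTPRN2* had the most, with 207 per Mb, followed by *RBFOX1* with 188, and *FHIT* the fewest with 108. An HCT116 p53+/+ peak overlapped 31 of the 2399 runs (1.29%, 0.880 to 1.83%), against 1.53% of all runs of the genome. An HCT116 p53-/- peak overlapped 54 (2.25%, 1.70 to 2.93%), against 2.81%. By type, 3.73% of the TC tracts and 1.07% of the TG tracts were overlapped in HCT116 p53+/+, and 7.47% and 1.96% in HCT116 p53-/-. Over the genome the corresponding values were 4.33% and 1.23%, and 9.42% and 1.78%.

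The 31 bases at the peak centre occurred more than once in the assembly, on either strand, for 26 of the 40 HCT116 p53+/+ peaks (65.0%). For HCT116 p53-/- it was 25 of the 45 (55.6%), against 49.0% and 53.6% of the lists, respectively. Overlapping windows within longer repeats were counted, so a further occurrence can lie in the same tract. For long CA tracts, such as the HCT116 p53-/- peak of *PTPRN2*, the 31 bases occurred 183643 times. How often reads from such tracts were aligned uniquely was not tested. No peak of the 9 genes held the p53 consensus decamer named by the study within 50 bp, whereas 2.61% of the HCT116 p53+/+ list and 3.17% of the HCT116 p53-/- list did. Only exact matches to a single decamer were counted, so sites with mismatches would be missed. A count of 0 of 85 allows a share of up to 3.53%, so the shares of the lists were not detectable at this number of peaks.

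By position, 37 of the 40 HCT116 p53+/+ peaks (92.5%, 79.6 to 98.4%) and 43 of the 45 HCT116 p53-/- peaks (95.6%, 84.9 to 99.5%) were centred in an intron of the canonical transcript, and introns make up 94.9% of the sequence of the 9 genes. None was centred in a canonical exon. The other 5 were the 4 peaks of *RBFOX1* upstream of its canonical transcript and the *WWOX* promoter peak. Intron 1 held 2 of the 40 (5.00%, 0.611 to 16.9%) and 7 of the 45 (15.6%, 6.49 to 29.5%), against 10.8% of the sequence. Within 1 kb of any annotated TSS were 3 of the 85, the *WWOX* promoter peak and an intron 4 peak of *RBFOX1* in each line. No other annotated gene lay at the centre of any of the 85 peaks.

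The median score of the members lay above the median of its list in each line, while single scores lay on both sides of it. The median percentile was 69.0 in HCT116 p53+/+ and 54.8 in HCT116 p53-/-. The median was 80.98 in HCT116 p53+/+ (range 50.09 to 171.7), against 67.86 for the list, and 26 of the 40 peaks were above the list median. In HCT116 p53-/- the median was 76.65 (52.44 to 158.65), against 73.93, with 24 of the 45 above it. A score of at least 100 was reached by 7 of the 40 (17.5%), against 16.5% of the list, and by 6 of the 45 (13.3%), against 20.4%. The 7 were 3 peaks of *CSMD1* and 1 each of *MACROD2*, *LRP1B*, *CNTNAP2* and *RBFOX1*. The 6 were 2 each of *WWOX* and *RBFOX1* and 1 each of *MACROD2* and *LRP1B*.

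**Figure D5:**
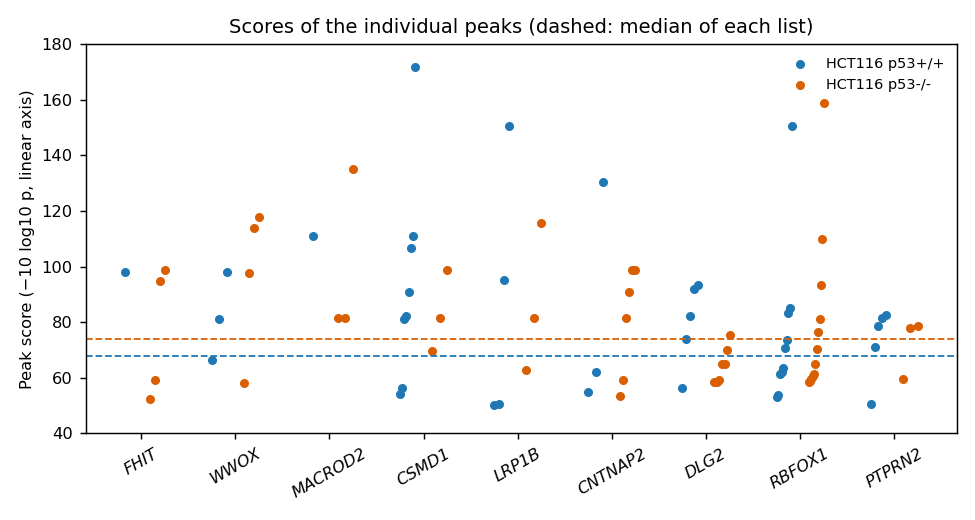
Score of each peak by gene, on a linear axis, in blue for HCT116 p53+/+ and in orange for HCT116 p53-/-. Each point is 1 peak and the dashed lines are the list medians of 67.86 and 73.93. Scores are comparable only among points of the same colour. The highest in blue is the *CSMD1* peak at 171.7 and the highest in orange the *RBFOX1* peak at 158.65.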

How the data were processed

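SMAR1 peaks of 1 anti-SMAR1 library per cell line were analysed. According to the submitters' processing notes and the study's methods, the authors trimmed reads with cutadapt 1.2.1, aligned them to hg19 with Bowtie2 2.2.1, used SAMtools and called peaks with MACS 1.4.2, filtering them on fold enrichment at a limit that is not given in the sources used here. The notes name SAMtools 0.1.19, and the methods another version. The deposited score of each peak is −10 log10 p as MACS gave it. Whether IgG served as the MACS control is not given in the sources used here.

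Starts were made 1-based. Genes, canonical transcripts and sequence were from GRCh37 with GENCODE release 44 mapped to it. Density was set against peaks per Mb without gaps. Overlap meant at least 1 shared bp. Intervals are exact Poisson or Clopper-Pearson at 95%, and a count of 0 was limited at 3 counts. Every gene of the list is named, with its highest-scoring peak per line described unless left out. Some items are not reported here. Of the comparison list, densest and sparsest genes are named. Members and lists were chosen with earlier results of these data known. The run and overlap functions were tested on simulated data and were correct in 100% of 2000 items each. Alternatives changed the score limit, the overlap rule, the run length, the gene span and the average. The tools were numba 0.67.0, scipy 1.17.1, pandas 2.3.3, numpy 2.4.6 and matplotlib 3.10.9 under Python 3.11.15.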

Additional observations from a re-analysis of the deposited data

How the results depend on the processing

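Of 42 alternative values for the 9 genes together, 36 were counted as unchanged. For the median score this meant the same side of the list median, and otherwise a value within the interval of the reported value. Of 144 for single genes 132 stayed within that interval, and the 12 others all came from limits on the score. With peaks scoring at least 100, the density in HCT116 p53-/- fell to 0.618 times the list average (0.227 to 1.34). The share of HCT116 p53-/- peaks with a run was 95.6% for runs of at least 6 bp and 64.4% for runs of at least 20 bp. A peak overlapped 3.57% (HCT116 p53+/+) and 4.61% (HCT116 p53-/-) of runs of at least 20 bp, against 3.19% and 6.08% over the genome. Counting peaks with no exon of any transcript at the centre, 100% of the HCT116 p53+/+ peaks were intronic. The overlap of the lists stayed at 0 except with centres within 500 bp, which counted the *RBFOX1* pair and gave 2.50% and 2.22%. For single genes the interval excluded 1 in 6 alternatives, of *RBFOX1*, *CSMD1* and *PTPRN2*. The alternative without *RBFOX1* was chosen after seeing the data. No paired analysis was possible because each line had 1 anti-SMAR1 library. With 1 to 12 peaks per gene and line, the intervals of single genes are wide, and the lists hold no read counts.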

Other observations

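Many peaks carried exactly the same score. In the 9 genes, 15 of the 45 HCT116 p53-/- peaks and 5 of the 40 HCT116 p53+/+ peaks had a score held by 100 or more peaks of their list, against 25.0% and 10.1% of all peaks. The score of 81.61 occurred in 478 HCT116 p53-/- peaks and was found in *MACROD2*, *CSMD1*, *LRP1B* and *CNTNAP2*. The score of 98.83, held by 289 peaks of that line, was the highest of *FHIT*, *CSMD1* and *CNTNAP2* there.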
